A study of Rattus norvegicus with 4 samples.

Results

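The heat shock chaperones described here are 10 rat genes: the transcription factor Hsf1 and 9 chaperones or co-chaperones, Hspa1b, Hspa8, Hsph1, Dnajb1, Hsp90aa1, Hspd1, Hspe1, Hspb1 and Cryab. They were taken by gene symbol, and all 10 of 16881 symbols in the count tables were found and measured in every library. The libraries come from wild-type rat neural stem/progenitor cells grown on bare PUCL or on PUCL@CNT1, a nanohybrid scaffold that the series calls electroconductive. On each platform, 1 library was made after 24 h in a stemness-maintaining medium (maintenance medium) and 1 after a further 1.5 d in a neuronal medium named B-27 Plus (differentiation medium), so medium and culture time changed together. The strain, age and tissue of origin of the cells are not given in the sources used here. The comparisons ask how the medium switch and the platform relate to chaperone transcript levels.

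When proteins misfold, the factor HSF1 is released from chaperones that hold it inactive, forms trimers and binds heat shock elements, which are arrays of alternating GAA and TTC units in promoters. Its targets include the inducible chaperone HSP70, encoded by Hspa1b, and the J-domain protein DNAJB1 that feeds clients to it. Cells that are not stressed also carry abundant constitutive chaperones, which fold new proteins in the cytosol (HSC70, HSP90) and in mitochondria (HSP60 with its lid HSP10). The small heat shock proteins HSPB1 and CRYAB bind unfolding proteins without using ATP, and both are also known from glia and muscle.

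Each combination of platform and medium was 1 library. In maintenance medium the PUCL library held 6502918 counts and the PUCL@CNT1 library 6035848, and in differentiation medium they held 6580894 and 6855984. Values of a gene in 4 libraries are given in that order throughout. Levels are counts per 1000000 after scaling by the trimmed mean of M values (CPM). Reads came from transcript 3′ ends and were not divided by gene length, so levels are compared between libraries of 1 gene, and genes are set beside each other only as shares of reads. The progenitor genes Sox2, Nes, Vim and Fabp7 had at least 2363 counts in every library, while Msi1 was at 0 in all 4 and Hes5 had 2 counts at most. All 7 microglia markers were at 0 in every library. Oligodendrocyte lineage markers were present in all 4 libraries, with summed levels of 952, 840, 1580 and 1559 CPM. In bulk RNA, fewer cells of a type and less RNA per cell cannot be told apart.

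RefSeq promoter windows on the GRCr8 assembly, from 250 bases before to 50 after the gene start, were held for 6 of the 10 genes: Hspe1, Hspd1, Hspa8, Hsph1, Hspb1 and Dnajb1. Hspa1b, Cryab, Hsp90aa1 and Hsf1 had no entry. These windows are shown because HSF1 is known to reach its targets through such units. They were searched for GAANNTTC and TTCNNGAA, each its own reverse complement, so 1 scan reads both strands. Where the motifs overlap by their shared triplet they form 3 or more alternating units. Of 33469 windows in the table, 8.59% held GAANNTTC, 8.77% TTCNNGAA, 15.9% either and 0.798% an array of 3 units or more. All 6 windows held a motif, and 4 held an array of 3 or more units, while those of Hspb1 and Dnajb1 held 2-unit motifs only. The window of Hspa1a, the copy of Hspa1b described later, held none of the motifs. A match describes the letters only.

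The stretches below run 5′ to 3′ on the gene's strand, with the matched units in capitals. Hspe1 (chr9:64084242-64084299, + strand) had 4 units from 65 to 48 bases before its start. The window of Hspd1 (chr9:64084242-64084287, - strand) held the same 18 genomic bases, read from the other strand and lying 242 to 225 bases before its start. The starts of these divergent neighbours lie 290 bases apart. Hspa8 (chr8:50080439-50080491, + strand) had 3 units from 55 to 43 bases before its start and a second array of 3 further away. Hsph1 (chr12:10427312-10427364, + strand) had 3 units from 36 to 24 bases before its start. Hspb1 (chr12:26432383-26432450, - strand) had a pair of separate 2-unit motifs, and Dnajb1 (chr19:41431142-41431172, - strand) had 1 such motif from 11 to 4 bases before its start and 1 after the start, not shown.
Hspe1: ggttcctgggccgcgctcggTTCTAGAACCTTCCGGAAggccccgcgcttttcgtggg
Hspd1: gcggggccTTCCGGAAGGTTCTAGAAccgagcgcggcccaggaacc
Hspa8: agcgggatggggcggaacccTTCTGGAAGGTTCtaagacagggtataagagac
Hsph1: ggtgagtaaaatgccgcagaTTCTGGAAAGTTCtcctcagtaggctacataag
Hspb1: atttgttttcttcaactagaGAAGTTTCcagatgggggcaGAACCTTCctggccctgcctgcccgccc
Dnajb1: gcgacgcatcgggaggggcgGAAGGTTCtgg

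Reads of the 10 genes summed to 15762, 18916, 13377 and 19482 counts, or 2390, 3028, 2069 and 2931 CPM. The sum was higher on PUCL@CNT1 than on PUCL in each medium. Hspe1, Hsp90aa1 and Hspd1 together held 75.0%, 79.4%, 71.6% and 73.5% of these reads. The sum therefore mostly reads those 3 genes and hides the changes of the scarcer Hspa1b, Hspb1 and Cryab. Hspa1b held 0.660%, 2.37%, 0.815% and 3.21% of the reads, and Hspb1 and Cryab together held more in differentiation than in maintenance medium on each platform.

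**Figure D1:**
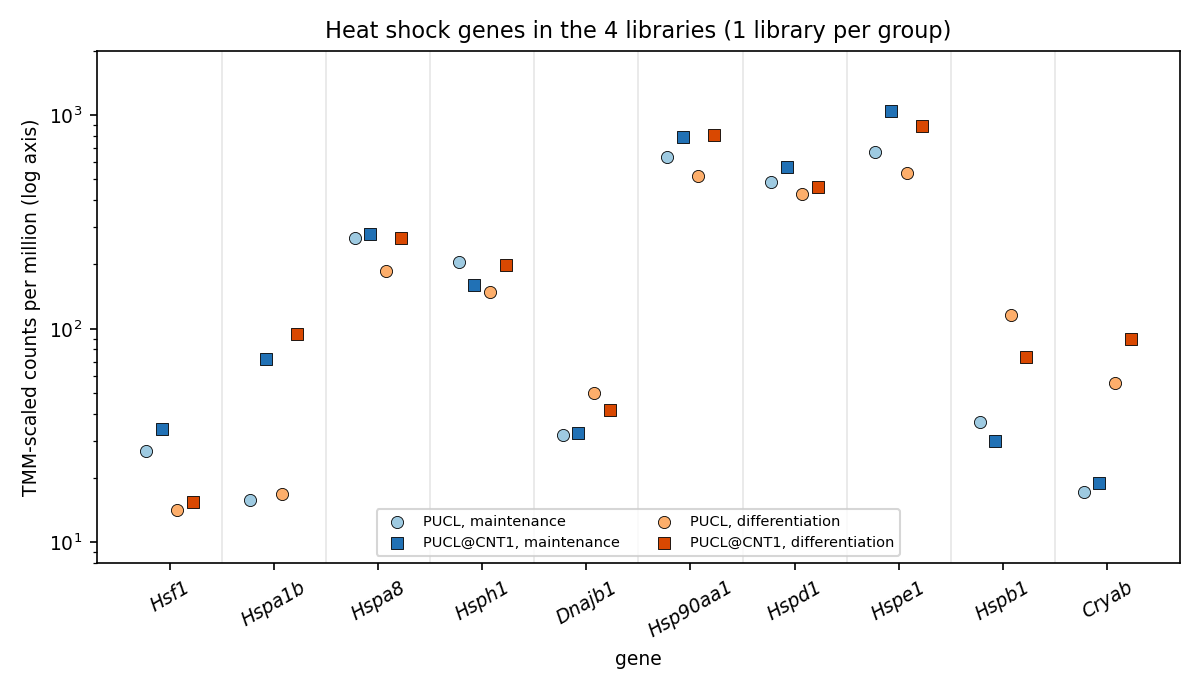
TMM-scaled counts per 1000000 (CPM, log axis) of the 10 genes in the 4 libraries, 1 point per library, with circles for PUCL and squares for PUCL@CNT1. Hspa1b lies at 15.8 and 16.9 CPM on PUCL and at 71.9 and 94.2 CPM on PUCL@CNT1, while Hspb1 and Cryab separate by medium.

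The platform comparison asks which chaperones differ between PUCL@CNT1 and PUCL. Hspa1b, the stress-inducible HSP70, was 4.56-fold higher on PUCL@CNT1 in maintenance medium (95% interval 3.67 to 5.70) and 5.59-fold higher in differentiation medium (4.55 to 6.91). The bounds follow from the exact binomial (Clopper-Pearson) interval of each pair of counts. With 1 library per group, these bounds cover the counting error of reads only, not spread between libraries. No molecular identifiers are described. Hspe1, the HSP10 lid of the mitochondrial chaperonin, was 1.55-fold (1.49 to 1.61) and 1.67-fold (1.60 to 1.74) higher on PUCL@CNT1. These were the 2 of 10 genes that rose with the platform in the edgeR quasi-likelihood test at an adjusted p of 0.05, and 0 fell. Over all 10516 genes tested, 0.209% rose and 0.247% fell.

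That test was an additive fit of platform and medium to the 4 libraries. It treats the media as repeats of 1 platform difference, leaves 1 residual degree of freedom and borrows its spread from other genes. Nothing here says that the libraries came from separate cultures. By a rule of size with no test, which asks for a 2-fold ratio with the bound closer to 1 still past 1.5-fold, Hspa1b was the only member higher in both media, against 2.52% of all genes.

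Hspa1b had 104, 449, 109 and 626 counts, or 15.8, 71.9, 16.9 and 94.2 CPM. Both PUCL@CNT1 libraries were high and both PUCL libraries low, with no overlap. Separation of this kind was seen for Hspe1 and Hsp90aa1 too, and narrowly for Hspa8 (266 against 265 CPM in the nearest libraries). It needs ratios above 0 in both media, a weaker condition that 27.2% of all genes tested met. The fitted platform log2 change was 2.33 (SE 0.44, edgeR adjusted p 0.000991), the 10th smallest p of all genes tested. The medium change was 0.25 (SE 0.42, adjusted p 0.951). Hspa1a, a near-identical neighbouring copy named after its values were seen, had 34, 64, 33 and 122 counts and a platform change of 1.42 (adjusted p 1.00). Reads may be shared between the copies. With both copies summed, an alternative added after the data were seen, the platform log2 change was 2.16 (adjusted p 0.000853).

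The call of Hspa1b was kept in 5 of 7 other tests, with adjusted p-values from 0.00191 to 0.337, and DESeq2 gave it no adjusted p. It was lost with the medium term left out of the fit (adjusted p 0.248), or with a minimum mean of 300 counts (0.337). It was also lost whichever library was left out together with that term, with log2 changes of 2.15 to 2.53 and adjusted p-values of 0.0590 to 0.684. Ribosomal RNA entries, which also differed by platform, held 11.3% and 13.4% of counts on PUCL and 9.03% and 8.46% on PUCL@CNT1. Without those entries the platform change of Hspa1b was 2.33 with an adjusted p of 0.00191.

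Markers of cell types differed by platform too. In edgeR, 1 of 7 astrocyte markers and 1 of 10 progenitor markers passed the test for platform. Both fell, as did 0.247% of all genes tested. They were S100b, at 104, 85.5, 609 and 114 CPM (log2 -1.36, SE 0.29, edgeR adjusted p 0.00578), and Slc1a3, a glutamate transporter of radial glia and astrocytes, at 362, 238, 639 and 312 CPM (log2 -0.82, SE 0.21, adjusted p 0.0457). The progenitor markers summed to 6348, 6665, 8131 and 10246 CPM, mostly through Vim, at 4314, 4795, 4814 and 7635 CPM. Other progenitor markers went both ways in differentiation medium. Sox2 was lower on PUCL@CNT1 (584 CPM) than on PUCL (975 CPM), as was Slc1a3. Pax6 (2.86 against 38.1 CPM), Prom1 (1.05 against 11.3 CPM) and Notch1 (39.9 against 47.3 CPM) were lower there too. Nes (559 against 535 CPM) and Fabp7 (1113 against 1071 CPM) were slightly higher. The part of these cells in the platform changes of Hspa1b and Hspe1 was not tested.

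Hspe1 had 672, 1043, 534 and 889 CPM from 3451 to 6512 counts per library. Both PUCL@CNT1 libraries were above both PUCL libraries. Its fitted platform log2 change was 0.68 (SE 0.18, edgeR adjusted p 0.0459). That call lay close to the threshold and was kept in 3 of 8 other tests, among them DESeq2 (0.00719) and limma-voom (0.00264). It was lost with DESeq2's size factors in edgeR (0.0888), total counts (0.0551), no low-count filter (0.0771), a minimum mean of 300 counts (0.337) and the medium term left out (1.00). With that term and any 1 library left out, log2 changes were 0.53 to 0.86 and adjusted p-values 0.704 to 1.00.

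Hspd1, the HSP60 barrel that Hspe1 closes, had 486, 575, 429 and 459 CPM. Its values lay close together, and its platform log2 change was 0.17 (SE 0.20, edgeR adjusted p 1.00). Since these neighbours face each other across 1 shared array of heat shock units, their ratio within a library is shown too, which needs no scaling between libraries. Counts of Hspe1 over Hspd1 were 1.38 (95% counting interval 1.32 to 1.45) and 1.24 (1.18 to 1.31) on PUCL. On PUCL@CNT1 they were 1.81 (1.74 to 1.89) and 1.94 (1.85 to 2.02). The intervals of the platforms did not overlap in either medium.

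**Figure D2:**
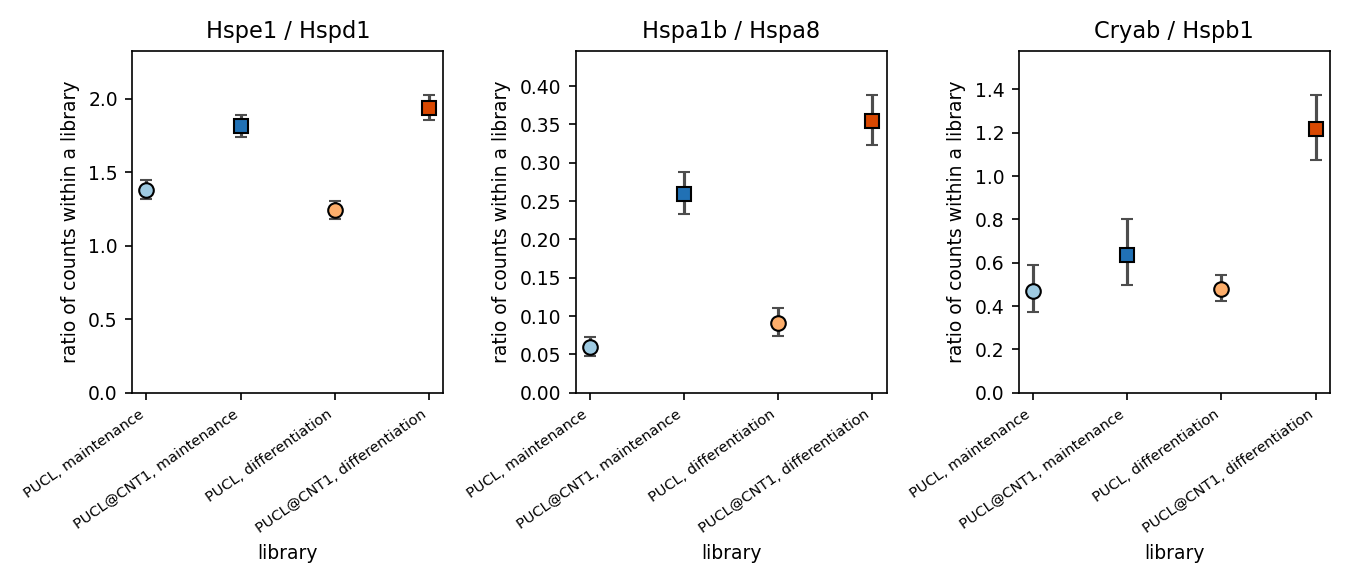
Ratio of the counts of 2 genes within each library, with 95% exact counting intervals as bars and 1 library per point. Hspe1 over Hspd1 lies at 1.38 and 1.24 on PUCL and 1.81 and 1.94 on PUCL@CNT1, Hspa1b over Hspa8 is higher in both PUCL@CNT1 libraries, and Cryab over Hspb1 stands at 1.22 in 1 library and below 0.64 in the others.

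Hspa8 encodes HSC70, the constitutive relative of HSP70. It had 265, 277, 186 and 266 CPM, with PUCL in differentiation medium below the other 3 libraries. Its platform log2 change was 0.29 (SE 0.24, edgeR adjusted p 1.00). Counts of Hspa1b over Hspa8 were 0.0596 (0.0484 to 0.0726) and 0.0908 (0.0739 to 0.110) on PUCL, and 0.260 (0.233 to 0.288) and 0.354 (0.323 to 0.388) on PUCL@CNT1. The inducible gene thus took a larger share beside the constitutive one in both PUCL@CNT1 libraries. Hspa8 stands in 3 rows of the tables, which were summed. Their platform log2 ratios in maintenance medium were 0.25, 0.15 and -0.09, and those in differentiation medium were 0.58, 0.44 and 0.53. Reads of near-identical copies may be split among these rows.

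Hsp90aa1, the inducible cytosolic HSP90, had 634, 787, 519 and 804 CPM. Both PUCL@CNT1 libraries lay above both PUCL libraries, by 1.24-fold (1.19 to 1.29) in maintenance and 1.55-fold (1.48 to 1.62) in differentiation medium. The fitted platform log2 change of 0.47 (SE 0.18) had an unadjusted p of 0.0112 and an edgeR adjusted p of 0.436, outside the threshold.

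Hsph1, the HSP110 that recharges HSP70 with ATP, had 205, 160, 149 and 198 CPM. It was 1.28-fold (1.18 to 1.39) lower on PUCL@CNT1 in maintenance medium and 1.33-fold (1.22 to 1.44) higher there in differentiation medium. The platform log2 ratio changed by 0.76 between the media (95% counting interval 0.60 to 0.93), and an interaction could not be tested because it leaves no residual degree of freedom. Opposite ratios with both counting intervals beyond 1 were common, at 20.5% of all genes tested. The fitted platform log2 change was 0.03 (SE 0.26, adjusted p 1.00).

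Dnajb1, the J-domain partner of inducible HSP70, had 32.0, 32.7, 49.97 and 41.5 CPM. Its platform ratios were 1.02-fold (0.838 to 1.24) and 0.831-fold (0.705 to 0.979), and the fitted log2 change was -0.12 (SE 0.48, edgeR adjusted p 1.00). Hsf1 had 177, 212, 92 and 103 counts, with platform ratios of 1.26-fold (1.03 to 1.55) and 1.09-fold (0.814 to 1.46) and a fitted log2 change of 0.23 (SE 0.65, adjusted p 1.00). Neither the HSP70 partner nor the factor's own transcript passed the test beside Hspa1b.

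Across the 10 genes the median platform log2 ratio was 0.19 in maintenance and 0.46 in differentiation medium, against 0.03 and -0.03 over all genes tested. Of the 10, 7 lay above 0 in both media (70%), against 27.2% of all genes, and 1 lay below 0 in both, which was Hspb1. These pairs share no library, but the members were chosen with earlier results of these data known. All genes tested include ones that reached only 10 counts in any library, so the shares are not matched for counts.

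**Figure D3:**
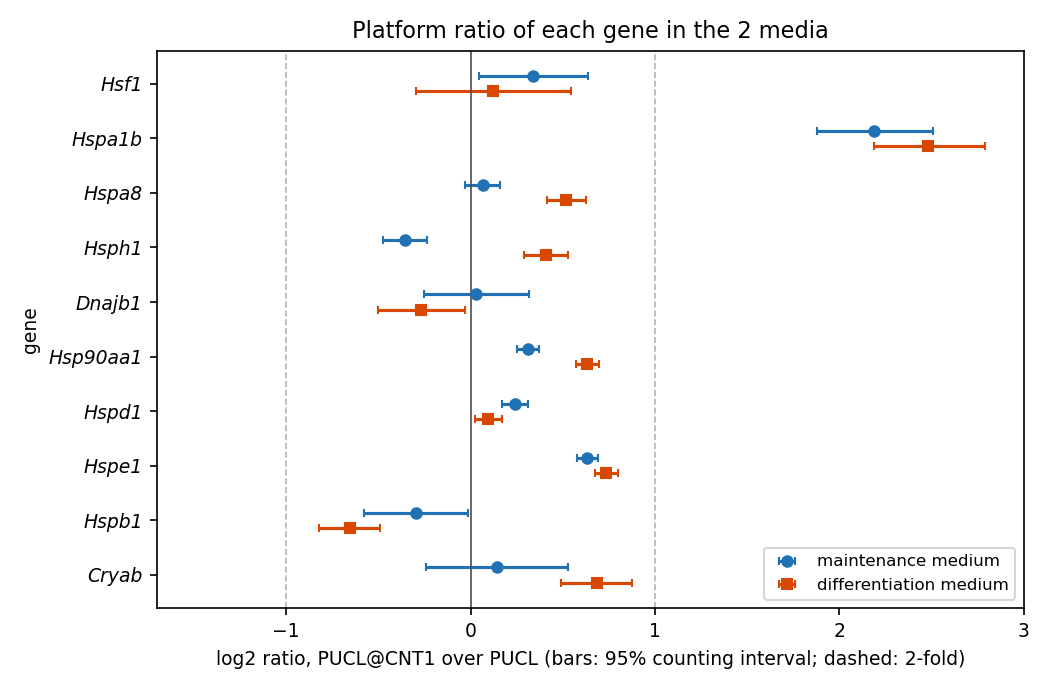
Log2 ratio of PUCL@CNT1 over PUCL for each gene in maintenance medium (circles) and differentiation medium (squares), with 95% exact counting intervals and dashed lines at 2-fold. Hspa1b stands at 2.18 and 2.48, Hspe1 at 0.63 and 0.74, and Hsph1 lies on opposite sides of 0.

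**Figure D4:**
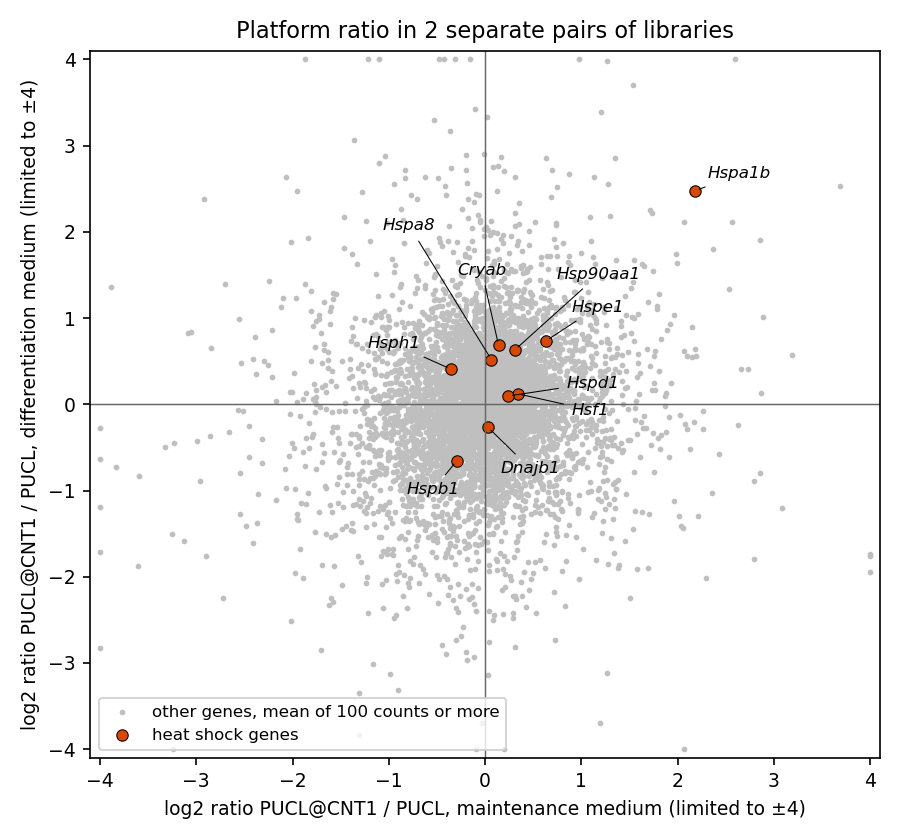
Platform log2 ratio in maintenance medium (x axis) against that in differentiation medium (y axis) for the 10 genes (orange) and other genes averaging at least 100 counts (grey), limited to 4 in either direction. The axes use separate libraries, and Hspa1b lies at 2.18 and 2.48 while the other 9 lie between -0.66 and 0.74 on both axes.

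The medium comparison asks which chaperones differ after the switch to differentiation medium. The small heat shock genes rose: Cryab (alpha B-crystallin) was 3.24-fold higher on PUCL (2.62 to 4.04) and 4.72-fold higher on PUCL@CNT1 (3.87 to 5.80), and Hspb1 (HSP27) was 3.17-fold (2.73 to 3.68) and 2.47-fold (2.08 to 2.93) higher. They were the 2 of 10 genes that rose in the edgeR test, and 0 fell, against 1.8% of all genes that rose and 1.02% that fell. They were also the 2 of 10 that were higher on both platforms by the rule of size, against 4.35% of all genes. None of the other 8 genes passed the edgeR test for medium. At an unadjusted p of 0.05 the count was also 2 of 10, against 12.1% of all genes, DESeq2 called Cryab alone and limma-voom called both.

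Cryab had 113, 118, 359 and 593 counts, or 17.1, 18.9, 55.5 and 89.2 CPM. Both differentiation libraries were high, with no overlap, and the PUCL@CNT1 library was the higher of them. Separation of this kind was seen for Hspb1 and Dnajb1 too. It needs ratios above 0 on both platforms, a weaker condition that 29.6% of all genes tested met. The fitted medium log2 change was 1.97 (SE 0.46, edgeR adjusted p 0.00456). The call was kept in all 7 other tests that kept the gene, with adjusted p-values up to 0.0440. With the platform term and 1 library left out, it was kept without the PUCL differentiation library (0.00786). It was lost without PUCL@CNT1 in differentiation medium (0.181), PUCL in maintenance medium (0.278) or PUCL@CNT1 in maintenance medium (0.318).

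Hspb1 had 241, 186, 748 and 488 counts, or 36.5, 29.8, 116 and 73.4 CPM. Both differentiation libraries were again high without overlap, but here PUCL was the higher of them. The fitted medium log2 change was 1.48 (SE 0.38, edgeR adjusted p 0.0136). The call was kept in 6 of 8 other tests and lost in DESeq2 (0.0956) and with a minimum mean of 300 counts (0.0872). With the platform term also left out, it was kept without the PUCL@CNT1 differentiation library (0.0140) and lost without PUCL in differentiation (0.299), PUCL in maintenance (0.328) or PUCL@CNT1 in maintenance medium (0.625).

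The small heat shock genes differed from each other by platform in differentiation medium. Cryab was 1.61-fold (1.41 to 1.84) higher on PUCL@CNT1 there, and Hspb1 was 1.58-fold (1.40 to 1.77) lower. Counts of Cryab over Hspb1 were 0.469 (0.372 to 0.589), 0.634 (0.499 to 0.803), 0.480 (0.422 to 0.545) and 1.22 (1.08 to 1.37), so Cryab outnumbered Hspb1 in 1 library. The fitted platform log2 changes were 0.42 (SE 0.44) for Cryab and -0.48 (SE 0.38) for Hspb1, both with an edgeR adjusted p of 1.00.

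Some markers of other cell types also differed by medium. The 9 oligodendrocyte lineage markers were all detected, and 4 of them rose in the edgeR test, against 1.8% of all genes, with the summed levels given above. In the same test 2 of 10 progenitor and 1 of 7 astrocyte markers rose, and 0 fell. The 8 neuron markers summed to 141, 123, 91.4 and 55.5 CPM, and 0 of them passed. The 7 astrocyte markers summed to 520, 502, 993 and 481 CPM, with Slc1a2 at 0 in all libraries. That sum was higher in differentiation medium on PUCL alone, through S100b, while Gja1 had 362, 377, 304 and 344 CPM. The 11 smooth muscle, mural and fibroblast markers summed to 1370, 958, 724 and 669 CPM, with Rgs5, Dcn and Lum at 0, 1 member higher and 1 lower in edgeR. The part of these cell types in the rise of Cryab and Hspb1 was not tested.

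Hsf1 was lower in both differentiation libraries (26.8, 33.9, 14.2 and 15.5 CPM), by 1.89-fold on PUCL (1.46 to 2.45) and 2.19-fold on PUCL@CNT1 (1.72 to 2.80). By the rule of size it was the only member called lower, on PUCL@CNT1, where 14.5% of all genes were. On PUCL 0 of 10 members were called lower, against 15.3% of all genes. The fitted medium log2 change of -1.02 (SE 0.65, edgeR adjusted p 0.630) did not pass the test, at a mean of 146 counts.

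The abundant chaperones differed little by medium. Fitted log2 changes were -0.28 for Hspe1, -0.25 for Hspd1, -0.28 for Hspa8, -0.13 for Hsp90aa1 and -0.08 for Hsph1, with edgeR adjusted p-values from 0.607 to 0.983. Dnajb1 had 0.49 (SE 0.48, adjusted p 0.867), with ratios of 1.56-fold on PUCL (1.31 to 1.87) and 1.27-fold on PUCL@CNT1 (1.06 to 1.53). On PUCL, Hspa8 was 1.43-fold (1.32 to 1.54) and Hsp90aa1 1.22-fold (1.17 to 1.28) lower in differentiation medium. On PUCL@CNT1 the intervals of both genes included 1. Over the 10 genes the median medium log2 ratio was -0.23 on PUCL and 0.17 on PUCL@CNT1, against 0.03 and -0.02 over all genes.

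**Figure D5:**
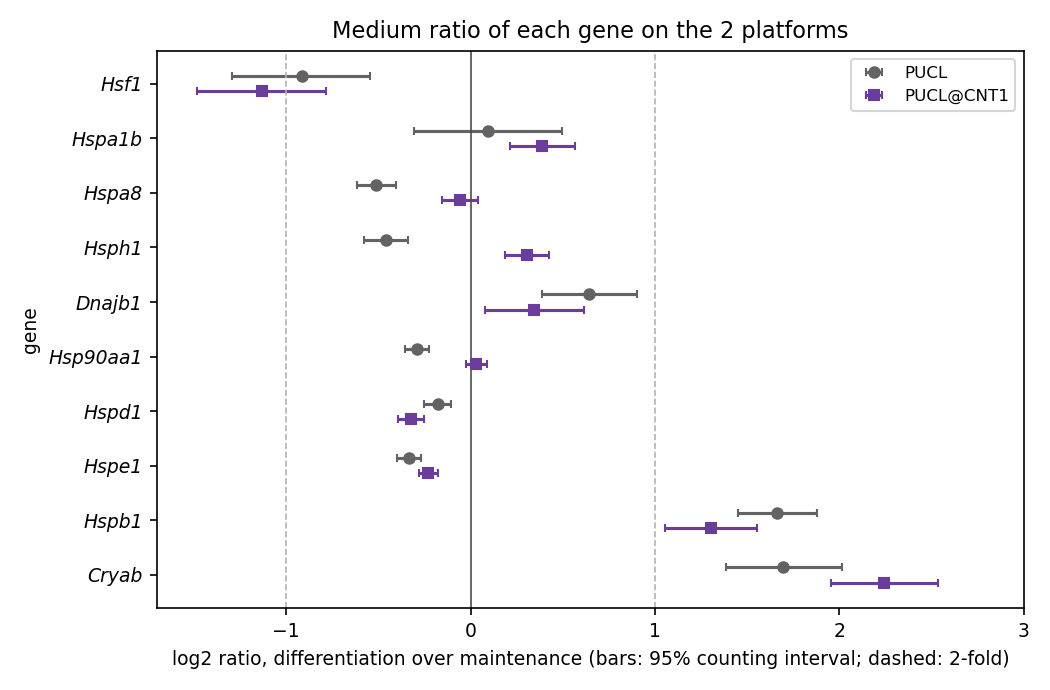
Log2 ratio of differentiation over maintenance medium for each gene on PUCL (circles) and PUCL@CNT1 (squares), with 95% exact counting intervals and dashed lines at 2-fold. Hspb1 (1.66 and 1.30) and Cryab (1.69 and 2.23) lie above 2-fold on both platforms, and Hsf1 is the lowest on both.

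The wider chaperone network was read from 9 lists of 87 genes, of which 82 were in the tables and 75 were tested. For medium, 2 rose and 2 fell in edgeR, against 1.8% and 1.02% of all genes, while DESeq2 called 2 and limma-voom 5, with Hspa4 and Pfdn2 among the latter. The median fitted log2 change was -0.19 against 0.0033 over all genes. For platform, 0 of 75 passed in edgeR, where 0.209% of all genes rose and 0.247% fell, and 7 had an unadjusted p under 0.05, against 6.95% of all genes, while DESeq2 and limma-voom each called 1, Hspa4. The median platform change was 0.10, against -0.0019 over all genes. Of the 75, 50 lay above 0 for platform, where 49.9% of all genes did.

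Among other HSP70 and HSP110 genes, 0 of 8 passed in edgeR for either effect. Hspa4, an HSP110 exchange factor, took the most reads, at 2073, 2514, 2247 and 3738 CPM. Its platform log2 change was 0.51 (SE 0.14, edgeR adjusted p 0.0671), with 3 of 8 other tests past the threshold. Of 3 other small heat shock genes tested, 0 passed for either effect. Hspb11, the one with the most reads, had medium log2 ratios of -0.39 and -0.05. The other genes of that list, named after their values were seen, were Hspb6 with 113, 187, 388 and 104 counts and Hspb8 with 0, 4, 0 and 24 counts. Of 2 HSF family genes tested 0 passed, and Hsbp1, which binds HSF1 trimers, had medium ratios of -0.07 and 0.63.

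Of 14 genes of HSP90 and its co-chaperones, Fkbp8, which anchors at the mitochondrial outer membrane, rose with medium (log2 1.18, SE 0.36, edgeR adjusted p 0.0486). It passed in 0 of 8 other tests, with adjusted p-values from 0.0524 to 0.220, and in 0 of 4 fits with 1 library and the platform term left out (0.193 to 0.986). Hsp90ab1, the constitutive HSP90, had 1135, 1363, 1122 and 1512 CPM and a platform log2 ratio of 0.26 in maintenance and 0.43 in differentiation medium. Its ratios pointed the same way as those of Hsp90aa1.

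Of 15 J-domain genes, Dnajc2, which works at the ribosome on new chains, fell with medium (log2 -1.42, SE 0.30, edgeR adjusted p 0.00129). It passed in 7 of 8 other tests. With 1 library and the platform term left out it was kept without PUCL@CNT1 in differentiation medium (0.00229) and lost without any of the others (0.176 to 0.748). Dnajc21, a ribosome maturation factor, had 86, 273, 47 and 226 counts and was higher on PUCL@CNT1 by the rule of size in both media, with a fitted log2 change of 1.98 (SE 0.64, adjusted p 0.205). Dnaja1, a partner of HSC70, took the most reads of the list and had log2 ratios between -0.08 and 0.22 in the 4 pairs of libraries.

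Of 9 exchange factors and adaptors of HSP70, 0 passed for either effect. Bag4 had 0, 0, 20 and 30 counts. Set against a floor of 3 counts per library it was 6.80-fold higher in differentiation medium for PUCL and 9.40-fold higher for PUCL@CNT1. These folds leave out counting error, and the edgeR adjusted p was 0.768. St13, the HSP70-interacting protein that took the most reads, had medium log2 ratios of -1.04 and -0.25. All 12 tested genes of the chaperonin CCT, which folds actin and tubulin, and of its partner prefoldin had fitted medium changes below 0. Over all 10516 genes tested, 5240 did. Of the 12 genes Tcp1 fell (log2 -0.91, SE 0.27, edgeR adjusted p 0.0408, passing in 4 of 8 other tests). It was lost whichever library was left out with the platform term (0.0562 to 0.758). Pfdn2, a prefoldin subunit with the most reads of the list, had -0.41 and -0.47.

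Of 9 other mitochondrial chaperones and proteases, 0 passed for either effect, and 7 lay above 0 for platform, where 49.9% of all genes did. Grpel1, the exchange factor of mitochondrial HSP70, had platform log2 ratios of 0.68 in maintenance and -0.14 in differentiation medium. The latter is a small difference, from 618 counts on PUCL and 578 on PUCL@CNT1. Of 3 other known HSF1 targets, Serpinh1, the collagen chaperone HSP47 of the endoplasmic reticulum, rose with medium. It had 1071, 1111, 1806 and 1907 CPM (log2 0.77, SE 0.15, edgeR adjusted p 0.000622), passing in 6 of 8 other tests. It was lost whichever library was left out with the platform term (0.0546 to 0.819).

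Genes whose profile over the 4 libraries was most like that of a member were taken from 6204 genes averaging at least 100 counts, by the root-mean-square distance between centred log2 CPM. Nearest to Hspa1b were the RNA-binding protein gene Tia1 (34, 193, 54 and 242 counts, distance 0.22), Phtf1 (0.36) and Tbc1d14 (0.36). Nearest to Hspe1 were Plekhb2 (0.016), Unc119b (0.033) and the cyclophilin gene Ppig (0.040), and to Hspd1 Nop14 (0.019), Socs6 (0.022) and Ppp1cc (0.029). Nearest to Cryab were Tp53i11 (0.15), the galectin gene Lgals1 (0.17) and the protease gene Htra1 (0.18). Nearest to Hspb1 were Abat (0.069), Plcd1 (0.073) and Igsf8 (0.095). No other of the 10 members was among the 3 nearest to any of these 5. Hsp90aa1 came closest to Hspe1 among the members, at distance 0.14 and rank 87.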

How the data were processed

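The authors deposited 1 table of whole-number counts by gene for each library, without normalization. The tools named are bedtools and Bowtie2, with rn6 as genome build, per the submitters' processing notes, and per the labels' protocols 500 ng of total RNA went into a Lexogen Quant-Seq kit. Versions, annotation, strand setting and filters are not given in the sources used here, so overlapping and antisense genes cannot be told apart. Rows of 1 symbol were summed. A gene was tested where any library reached 10 counts (10516 of 16881), with TMM factors of 1.01, 1.035, 0.982 and 0.970. The fit was edgeR 4.0.16 quasi-likelihood with Benjamini-Hochberg adjustment over all genes, with DESeq2 1.42.0, limma 3.58.1, other scalings and filters, and left-out libraries as alternatives. It was tested on simulated data. Single-pair log2 ratios used a prior count of 0.5. A count of 0 was set at 3 counts for the fold, while intervals used the counts as they were.

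The members and lists were chosen with earlier results of these data known. Named beyond the members were genes of the lists past the edgeR threshold, called by size in the same direction on both platforms or in both media, or highest in CPM in their list, and the 3 nearest profiles of Hspd1 and of each called member. Promoter sequences are from RefSeq (GRCr8) and were matched by symbol.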

Additional observations from a re-analysis of the deposited data

Results flagged for a closer look

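Hsph1 was the only one of the 10 genes whose platform ratio pointed in opposite directions in the media with both counting intervals beyond 1, a pattern that 20.5% of all genes tested showed. Its log2 ratio of PUCL@CNT1 over PUCL was -0.35 in maintenance and 0.41 in differentiation medium, a difference of 0.76. The same 4 counts give a medium log2 ratio of -0.46 for PUCL and 0.30 for PUCL@CNT1, again 0.76 apart. With 1 library per group the difference was not tested.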

How the results depend on the processing

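Genes called for medium numbered 296 in edgeR, 170 in DESeq2, 28 with a minimum mean of 300 counts and 176 with the platform term left out. With that term and 1 library left out they numbered 28 without PUCL and 16 without PUCL@CNT1 in maintenance medium, and 203 without PUCL and 193 without PUCL@CNT1 in differentiation medium. The share that rose was 63.9%, 53.5% with total counts, 89.3% without PUCL in maintenance and 47.7% without PUCL@CNT1 in differentiation medium. Genes called for platform numbered 48, but 18 with DESeq2's size factors in edgeR (33.3% higher against 45.8%), 27 with total counts, 87 in limma-voom (57.5% higher), 36 in DESeq2 (61.1% higher) and 25 with no low-count filter. In edgeR 0 were called with a minimum mean of 300 counts (343 at an unadjusted p of 0.05) and 0 with the medium term left out (388). With that term and 1 library left out, they numbered 2 without PUCL and 9 without PUCL@CNT1 in maintenance medium, and 0 (334) without PUCL and 26 without PUCL@CNT1 in differentiation medium. The cause was not tested.

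Uncalled changes reversed in some fits. With a minimum mean of 300 counts the platform change of Hsph1 was -0.0047. With the other factor and 1 library left out, the medium change reversed in 2 fits each for Hspa1b (-0.37 and -1.38, range -1.38 to 1.81), Hspe1 (0.083 and 0.054, from -0.69), Hsp90aa1 (0.061 and 0.18, from -0.46) and Hsph1 (0.11 and 0.12, from -0.30). The platform change reversed for Hspb1 (0.50, from -1.34), Cryab (-0.039 and -0.93, to 1.66), Hsph1 (-0.19 and -0.13, to 0.26), Dnajb1 (0.019 and 0.22, from -0.43) and Hsf1 (-0.41 and -0.11, to 0.80). These fits set 2 libraries against 1, so the other factor is unbalanced by construction. DESeq2 gave an adjusted p for platform to 3 of 10 members. No pairing of replicates was possible because each group had 1 library. The additive fit itself compares platforms within a medium and media within a platform, and the fits with the other factor left out drop that matching. The platform calls of Hspa1b and Hspe1 were lost in those fits, and the cause was not tested. Cryab, Dnajb1 and Hsf1 average under 300 counts and gave no value under that minimum.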

Other observations

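Among tested genes with a promoter entry, 39 of 8026 held an array of 3 or more alternating GAA and TTC units. Their median fitted log2 change was 0.17 for platform, against -0.0039 over all 8026, and -0.08 for medium, against -0.0070. In edgeR Hspe1 was the 1 of 39 that rose with platform and Serpinh1 the 1 that rose with medium, and 0 fell. Over all 8026, 0.212% rose and 0.224% fell with platform and 1.83% rose and 0.897% fell with medium, so 1 of 39 for medium is near that share. These 39 include the members Hspe1, Hspd1, Hspa8 and Hsph1, which were chosen with earlier results of these data known. The median for platform is the value of Hspd1, and that for medium is the value of Hsph1. The platform call of Hspe1 is the one given above, so 1 of 39 for platform is no separate result.

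Counts of Hspa1b over its copy Hspa1a were 3.06 (95% counting interval 2.06 to 4.65) and 3.30 (2.22 to 5.04) on PUCL, and 7.02 (5.39 to 9.27) and 5.13 (4.22 to 6.28) on PUCL@CNT1. Both copies had more counts on PUCL@CNT1 in each medium, and the copy with more reads had the larger ratio.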
